A study of Mus musculus with 13 samples.

Results

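The comparison described here asks what changed in pregnant mouse basal epidermis when Tbx3 was deleted from it. Bulk RNA was sequenced from abdominal interfollicular basal cells, sorted as CD49f+ CD34-, of C57BL/6 mice at gestation day 16 (dpc16). The conditional knockout (cKO) mice were K14creERT2;Tbx3flox/flox, which carry floxed Tbx3 alleles and a recombinase that tamoxifen switches on and that the keratin 14 promoter drives. They were set against wild type (WT) mice of the same strain and stage. The members are the 6 dpc16 libraries, 3 of each genotype, of 9 bulk libraries and 13 libraries in all, and the 11413 of 21950 genes that averaged 1 FPKM or more over those 6 libraries. FPKM are fragment counts divided by transcript length and sequencing depth. The other 3 bulk libraries, from non-pregnant (NP) WT mice, entered the fit to estimate the spread and appear below as levels. The keratin 14 promoter is active in basal cells of follicles as well as of the interfollicular epidermis. The sources used here do not give the deleted part of Tbx3, the tamoxifen schedule of the bulk mice or any tamoxifen treatment of the WT mice. No label ties each library to an animal of its own. The p-values thus measure library-to-library spread, which may be technical.

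Tbx3 is a T-box transcription factor that acts mainly as a repressor and is known for its roles in limb, mammary gland and stem cell biology. Basal keratinocytes hold the dividing cells of the epidermis. They sit on a basement membrane through hemidesmosomes, express keratins 5 and 14, and switch to keratins 1 and 10 as they leave for the spinous layer. Abdominal skin must grow in pregnancy, when glucocorticoid, oestrogen and prolactin signalling all change.

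A set of 5 promoter windows of changed genes is printed first, because a T-box factor binds DNA through a short core motif. The sequences come from RefSeq on GRCm38.p6, and each runs from 250 bases before to 50 bases after an annotated start. The first 4 hold the T-box core GGTGTGA or its reverse complement TCACACC, in capitals. In the last one the capitals mark AGAACA or TGTTCT, the core of the glucocorticoid receptor motif, and one AGAACA and one TGTTCT there face each other across a short spacer. Zfp949 and Sgk1 rose in cKO, and Prlr and Aldh1a1 fell.
Zfp949 (chr9:88547770-88548069, plus strand): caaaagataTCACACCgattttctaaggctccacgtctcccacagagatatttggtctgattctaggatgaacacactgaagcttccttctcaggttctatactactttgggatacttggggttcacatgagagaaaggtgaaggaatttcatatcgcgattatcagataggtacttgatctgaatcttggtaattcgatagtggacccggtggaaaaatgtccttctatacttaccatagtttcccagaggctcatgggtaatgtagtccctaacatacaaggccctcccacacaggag
Sgk1 (chr10:21978422-21978721, plus strand): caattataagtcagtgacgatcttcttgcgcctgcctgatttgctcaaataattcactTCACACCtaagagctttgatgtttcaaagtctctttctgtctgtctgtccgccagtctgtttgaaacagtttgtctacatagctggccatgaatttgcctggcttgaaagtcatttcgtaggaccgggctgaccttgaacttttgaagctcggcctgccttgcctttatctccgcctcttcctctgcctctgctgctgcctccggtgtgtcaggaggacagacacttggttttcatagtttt
Prlr (chr15:10176988-10177287, plus strand): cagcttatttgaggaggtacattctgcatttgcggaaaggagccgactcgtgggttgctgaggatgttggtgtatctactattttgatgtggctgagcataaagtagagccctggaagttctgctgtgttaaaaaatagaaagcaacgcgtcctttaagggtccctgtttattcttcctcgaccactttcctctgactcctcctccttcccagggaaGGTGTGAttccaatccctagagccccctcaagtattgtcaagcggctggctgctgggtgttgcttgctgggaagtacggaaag
Aldh1a1 (chr19:20492333-20492632, plus strand): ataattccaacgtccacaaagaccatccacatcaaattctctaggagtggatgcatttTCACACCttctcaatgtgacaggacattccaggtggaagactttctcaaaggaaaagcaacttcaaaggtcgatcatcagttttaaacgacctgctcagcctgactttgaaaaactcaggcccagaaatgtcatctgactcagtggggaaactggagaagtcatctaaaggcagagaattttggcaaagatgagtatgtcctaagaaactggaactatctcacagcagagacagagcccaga
Sgk1 (chr10:21993640-21993939, plus strand): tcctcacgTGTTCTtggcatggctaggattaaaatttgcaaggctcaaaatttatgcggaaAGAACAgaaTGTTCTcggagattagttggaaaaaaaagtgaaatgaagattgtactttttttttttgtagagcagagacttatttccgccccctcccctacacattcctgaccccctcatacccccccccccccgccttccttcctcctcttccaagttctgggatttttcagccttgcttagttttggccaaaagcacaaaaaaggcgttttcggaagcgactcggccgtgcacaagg
Searched on both strands, the T-box core was in a promoter window of 7 of 125 genes that rose and had a window (5.6%), of 5 of 84 that fell (5.95%) and of 363 of all 8946 tested genes with a window (4.06%). The glucocorticoid receptor core was in windows of 14 of 125 genes that rose (11.2%), 15 of 84 that fell (17.9%) and 1290 of 8946 (14.4%). A match is a run of letters and not a measured binding site, and genes with several starts have several windows.

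Tbx3 itself (ENSMUSG00000018604; mm10 chromosome 5, 119670669 to 119684724), the targeted gene, had 4.81, 1.65 and 4.89 FPKM in cKO, 17, 15.3 and 23 FPKM in WT dpc16 and 8.96, 6.38 and 8.12 FPKM in WT NP. The highest cKO value was below the lowest WT value of either stage, as the labels imply. The log2 change of Tbx3 between cKO and WT dpc16 was -2.09 (SE 0.31, limma with Benjamini-Hochberg adjustment over all genes tested, adjusted p = 0.012). Without WT dpc16 library 3, the one with the most Tbx3, the adjusted p was 0.0583, in a range of 0.00799 to 0.0583 over all alternatives. Fragments from exons that remain after recombination may count towards these levels. Of the other T-box genes, only Mga and Tbx1 were expressed enough to be tested, and neither passed: Mga (log2 change 0.17, adjusted p = 0.769) and Tbx1 (0.25, adjusted p = 0.847). Among 3 tested genes that TBX3 represses in other tissues, none passed, among them the cell cycle inhibitor Cdkn1a (log2 change 0.40, adjusted p = 0.672) and the adhesion molecule Cdh1 (-0.0026, adjusted p = 0.996).

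Estimated depths were about 24900000, 15100000 and 19400000 fragments in cKO, against 24600000, 27900000 and 32300000 in WT dpc16. They come from the step that 1 fragment makes in the FPKM of long genes. Any scaling between libraries, which is not given, would shift them. At these depths 1 FPKM of a 2 kb transcript stands for about 30 to 65 fragments. The cKO libraries differed among themselves. On the first principal component, which held 31.4% of the variance, cKO libraries 1, 2 and 3 scored 46.99, 36.00 and 13.00, against -0.68, -5.97 and -22.82 for WT dpc16. Library 3 of the cKO group was the one nearest to the WT dpc16 mean for 172 of the 257 genes called below, against 27 genes for library 1 and 58 for library 2.

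**Figure D1:**
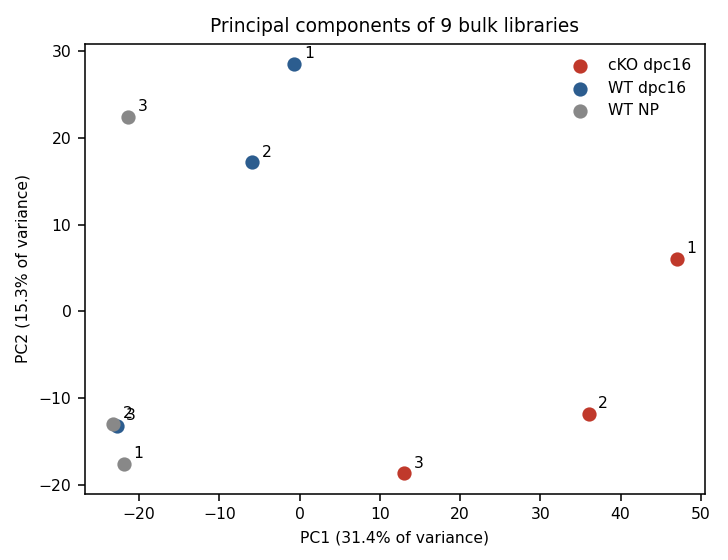
Scores of the 9 bulk libraries on the first and second principal components of log2(FPKM + 1), with the share of variance on each axis; colours mark the groups and digits the library. The cKO libraries lie to the right of all others on the first component, and cKO library 3, at 13.00, is the nearest to the WT dpc16 libraries.

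The sorted cell type was checked by its markers. The basal markers (Krt5, Krt14, Itga6, Itgb4, Col17a1 and Trp63) summed to 12956, 20272 and 17291 FPKM in the cKO libraries, against 25002, 24221 and 23814 in WT dpc16, and 0 of 6 were called (3 at an unadjusted p of 0.05). Krt5 had 5822, 10254 and 9773 FPKM in cKO, against 13027, 12680.4 and 12495 FPKM in WT dpc16 (log2 change -0.61, adjusted p = 0.146), and Krt14 had a log2 change of -0.64, adjusted p = 0.142. Markers of the upper hair follicle and infundibulum summed to 1679, 1023 and 1289 FPKM in cKO, against 1100, 938 and 475 FPKM in WT dpc16. None of the 10 was called, 3 had an unadjusted p under 0.05, 8 had positive log2 changes, and the median was 0.73. Over all genes tested, 17.7% had an unadjusted limma p under 0.05 and 51.1% a positive log2 change. The Langerhans and myeloid list summed to 276, 220 and 129 FPKM in cKO, against 116, 121 and 134 FPKM in WT dpc16, with no call among 9 tested (2 at an unadjusted p of 0.05). Of the 9, 8 had positive log2 changes, and the median was 0.47. For 3 of them all cKO libraries lay above all WT dpc16 libraries, as for 13.4% of all genes. The T cell list was almost all Thy1, with 119, 643 and 625 FPKM in cKO, against 669, 727 and 853 FPKM in WT dpc16 and no call (log2 change -1.03, adjusted p = 0.368), while the defining gene Cd3e had 0.712, 0 and 0.0382 FPKM in cKO, against 0.481, 0.187 and 0.138 FPKM in WT dpc16. Fibroblast markers were low, summing to 8.53, 22.3 and 13.8 FPKM in cKO, against 26.5, 32.6 and 35.3 FPKM in WT dpc16. Mammary luminal markers summed to at most 1.48 FPKM in cKO and 3.52 FPKM in WT dpc16. In bulk RNA fewer cells of a type and less RNA per cell cannot be told apart, and the part of these shifts in the results below was not tested except where stated.

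Of the 11413 genes, 257 (2.25%) passed the threshold, an adjusted p of 0.05: 146 rose in cKO (1.28%) and 111 fell (0.973%). All 257 had groups that did not overlap, as did 3005 genes (26.3%) in all. At an unadjusted p of 0.05 there were 2017 genes (17.7%). The median log2 change was 1.25 for the genes that rose, which ranged from 0.62 to 5.75, and -1.17 for those that fell, which ranged from -3.30 to -0.56. The median over all genes tested was 0.01. Of the rises, 12 had a WT dpc16 mean under 1 FPKM, among them Serpina3n, Gypc, Angptl7 and Il18. Of the falls, 7 had a cKO mean under 1 FPKM, among them Igfbp5 and Grk3. All of these passed the filter of 1 FPKM only through the group where they were higher, and their p-values carry that limit. The number of calls depended on single libraries: it lay between 52 and 99 when any one of the WT dpc16 libraries, cKO library 1 or cKO library 2 was left out, and was 397 without cKO library 3, with 240 higher and 157 lower. The count was 185, 157 and 265 without WT NP library 1, 2 and 3. A core of 39 genes (0.342%), 22 that rose and 17 that fell, was called in the full fit and in every fit that left out 1 library. Those genes lead the account, and for every other gene the number of the 9 such fits that lost its call is given, with the highest adjusted p among them and the library left out there. The gene lists below were chosen with earlier results of these data known. A share called above the 2.25% of all genes may thus be built in, and each such share is a description and not evidence that calls gather in a list.

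**Figure D2:**
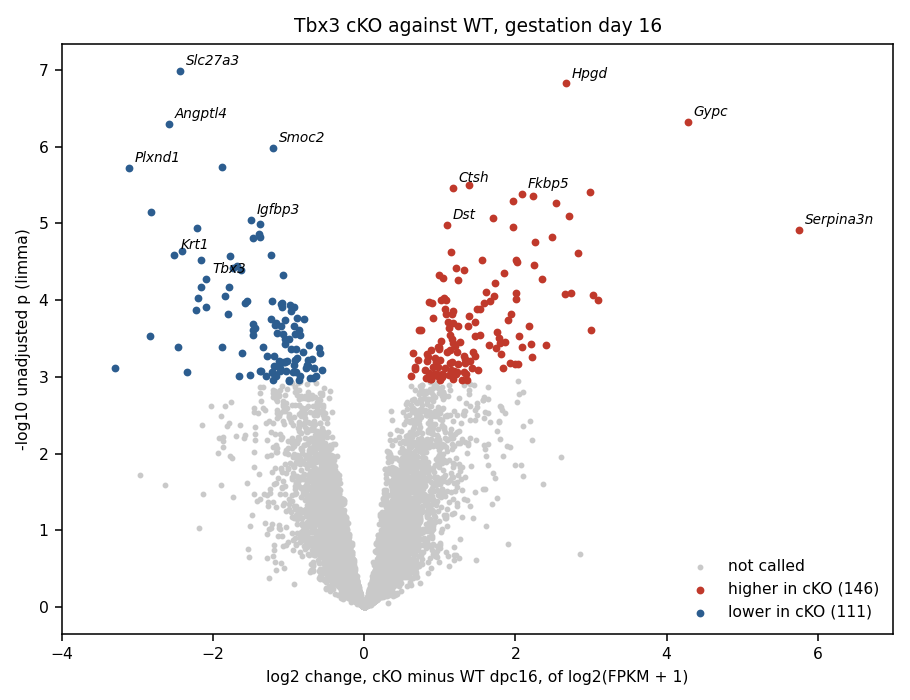
Each point is 1 of the 11413 genes tested, by its log2 change (cKO minus WT dpc16, in log2(FPKM + 1)) and the negative log10 of its unadjusted limma p; red marks the 146 genes that rose and blue the 111 that fell. Hpgd and Slc27a3 had the smallest p of all genes, and Serpina3n the largest rise.

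The smallest p among the rises belonged to an enzyme of prostaglandin breakdown. Hpgd, the dehydrogenase that inactivates prostaglandins (ENSMUSG00000031613; mm10 chromosome 8, 56294585 to 56321043), had 43.8, 37.6 and 33.9 FPKM in cKO, 5.72, 4.52 and 5.34 FPKM in WT dpc16 and 6.32, 8.5 and 4.89 FPKM in WT NP. All 3 cKO libraries stood far above all 6 WT libraries, and the cKO values lay close together. The means were 38.4 ± 4.99 FPKM in cKO and 5.19 ± 0.612 FPKM in WT dpc16 (SD, n = 3 each), with log2 change 2.67, SE 0.21, adjusted p = 0.000856. No other of the 18 tested genes for prostaglandin synthesis, breakdown and receptors was called, and the median of the list was -0.27. The share called was 5.56%, against 2.25% of all genes. Ptgs1, the constitutive cyclooxygenase, had 18.1, 20.2 and 20.9 FPKM in cKO, against 30.2, 35.4 and 52.2 FPKM in WT dpc16, with groups that did not overlap and a log2 change of -0.92, adjusted p = 0.0556. The inducible cyclooxygenase Ptgs2 (-0.25, adjusted p = 0.849) and the transporter Slco2a1 (0.40, adjusted p = 0.231) did not pass.

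Genes that glucocorticoids induce included 3 that rose and 1 that fell among 26 tested (15.4% called, against 2.25% of all genes). The median log2 change of the list was 0.52 and 22 of 26 were positive, against 51.1% of all genes tested. Fkbp5, a co-chaperone of steroid receptors, had 271, 157 and 179.6 FPKM in cKO, 44.7, 56 and 37.8 FPKM in WT dpc16 and 5.76, 5.28 and 7.73 FPKM in WT NP (log2 change 2.09, SE 0.24, adjusted p = 0.00413). Tsc22d3, known as the glucocorticoid-induced leucine zipper, had 734, 417 and 303 FPKM in cKO, 70.9, 116 and 61.8 FPKM in WT dpc16 and 124, 92.3 and 131 FPKM in WT NP (log2 change 2.49, SE 0.32, adjusted p = 0.00662). For both genes every cKO library lay above all 6 WT libraries, and Fkbp5 was lowest in NP skin. Sgk1, a kinase of ion transport and survival, had 274, 142 and 150.0 FPKM in cKO, against 75.7, 57.2 and 42.6 FPKM in WT dpc16 (log2 change 1.65, SE 0.32, adjusted p = 0.0315), a call lost in 5 of the 9 fits, with an adjusted p of up to 0.113 without WT dpc16 library 2. Several other members were higher on average without passing: the transcription factor Zbtb16 (log2 change 1.78, adjusted p = 0.0835), the glutamine synthetase Glul (1.26, adjusted p = 0.116), the kinase Pdk4 (1.93, adjusted p = 0.121) and the clock gene Per1 (0.93, adjusted p = 0.341). The member that fell was Angptl4, a secreted inhibitor of lipoprotein lipase (ENSMUSG00000002289; mm10 chromosome 17, 33773750 to 33781830), with 4.61, 4.36 and 5.79 FPKM in cKO, 31.3, 44.8 and 29 FPKM in WT dpc16 and 3.88, 6.43 and 5.69 FPKM in WT NP (log2 change -2.59, SE 0.23, adjusted p = 0.00143). Its cKO and NP libraries covered similar levels and the WT dpc16 libraries stood apart above them. The receptor genes themselves, Nr3c1 (0.10, adjusted p = 0.78) and Nr3c2 (0.09, adjusted p = 0.937), did not pass. Summed over the list, cKO libraries held 15899, 9774 and 6435 FPKM, against 9170, 7353 and 4342 FPKM in WT dpc16, so the sums overlapped.

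Receptors for the other hormones of pregnancy gave 1 rise and 1 fall among 23 tested receptor and steroid enzyme genes, with a median of -0.03. That is 8.70% called, against 2.25% of all genes. Esr1, the oestrogen receptor alpha, had 36.5, 72.3 and 19.3 FPKM in cKO, 9.18, 6.78 and 8.2 FPKM in WT dpc16 and 3.52, 1.66 and 1.79 FPKM in WT NP (log2 change 2.09, SE 0.41, adjusted p = 0.0322). Its call was lost in 6 fits, up to 0.123 without WT dpc16 library 2. Prlr, the prolactin receptor, had 10.2, 13.9 and 13 FPKM in cKO, 29.8, 26 and 27.3 FPKM in WT dpc16 and 8.55, 7.57 and 6.21 FPKM in WT NP (log2 change -1.11, SE 0.18, adjusted p = 0.017); its call was lost in 4 fits, up to 0.0782 without WT dpc16 library 1. Stat5a, which carries the prolactin signal, did not pass (log2 change -0.46, adjusted p = 0.297).

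**Figure D3:**
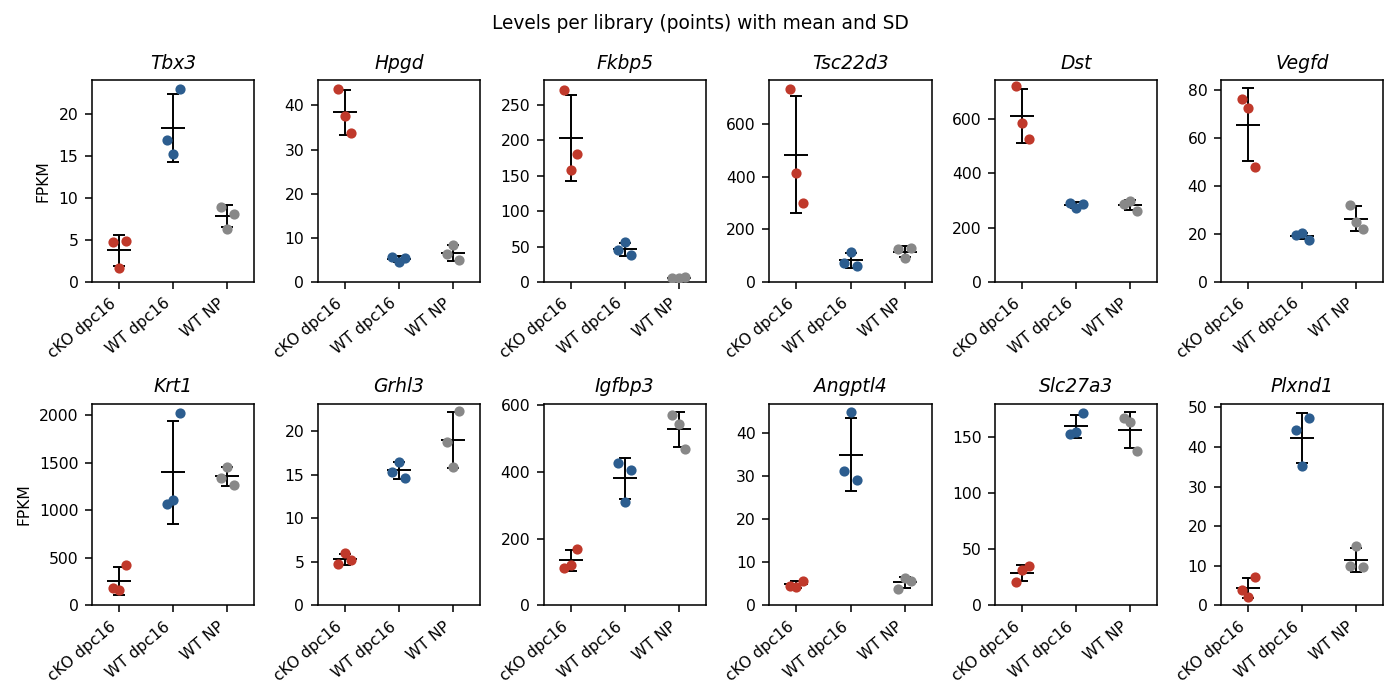
FPKM of 12 genes in the cKO dpc16, WT dpc16 and WT NP libraries; each point is a library, the bar the mean of 3 and the whiskers the SD, on a linear axis that starts at 0. In each panel the cKO and WT dpc16 libraries do not overlap: Hpgd, for example, lay between 33.9 and 43.8 FPKM in cKO and between 4.52 and 5.72 FPKM in WT dpc16.

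Of 35 tested genes of the suprabasal programme 4 fell and none rose (11.4% called, against 2.25% of all genes). Of the 35, 11 had positive log2 changes, against 51.1% of all genes, and the median was -0.31. Krt1, the keratin that basal cells switch on as they leave the basal layer (ENSMUSG00000046834; mm10 chromosome 15, 101845426 to 101850794), had 186, 160.5 and 427 FPKM in cKO, 1065, 1111 and 2027 FPKM in WT dpc16 and 1342, 1461 and 1268 FPKM in WT NP (log2 change -2.51, SE 0.35, adjusted p = 0.00895). The 2 groups did not overlap, though cKO library 3 held more Krt1 than the other cKO libraries. Grhl3, a transcription factor of barrier formation, had 4.72, 5.97 and 5.27 FPKM in cKO, against 15.3, 16.5 and 14.7 FPKM in WT dpc16 (log2 change -1.39, SE 0.18, adjusted p = 0.00658). Notch3, a receptor of the differentiating layers, had 6.68, 5.72 and 7.53 FPKM in cKO, against 14.5, 14 and 16 FPKM in WT dpc16 (log2 change -1.06, SE 0.18, adjusted p = 0.0214); this call was lost in 5 fits, up to 0.0857 without WT dpc16 library 3. Krt10, the partner of Krt1, had 604, 1076 and 1088 FPKM in cKO, against 1606, 1885 and 4831 FPKM in WT dpc16 and did not pass (log2 change -1.46, adjusted p = 0.0739). Nor did Dmkn (-1.14, adjusted p = 0.0601), Lypd3 (-1.13, adjusted p = 0.0761), the desmoglein Dsg1b (-1.16, adjusted p = 0.0783) or Ivl, which encodes involucrin (-1.01, adjusted p = 0.121). The cornified envelope genes Lor (0.57, adjusted p = 0.575), Cdsn (0.73, adjusted p = 0.339) and Flg2 (0.45, adjusted p = 0.592) had positive changes that did not pass. The list summed to 5325, 5278 and 6507 FPKM in cKO, against 7856, 8437 and 17071 FPKM in WT dpc16, where library 3 stood apart. At an unadjusted p of 0.05, 12 of the 35 passed, against 17.7% of all genes tested. The sums of basal markers given above were also lower in every cKO library, and their part in this result was not tested. The highest adjusted p of Krt1 over the 9 fits was 0.0434 without cKO library 1.

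Genes of the basal state gave 1 rise and 2 falls among 21 tested (14.3%, against 2.25% of all genes), with a median of -0.16. Igfbp3, an insulin-like growth factor (IGF) binding protein made by basal cells, had 112, 122 and 170.0 FPKM in cKO, 427, 311 and 406 FPKM in WT dpc16 and 571, 544 and 469.7 FPKM in WT NP (log2 change -1.50, SE 0.18, adjusted p = 0.00571). Sparc, a matricellular protein, had 17.1, 35 and 33.3 FPKM in cKO, against 89.8, 95.4 and 83.4 FPKM in WT dpc16 (log2 change -1.68, SE 0.24, adjusted p = 0.0102), a call lost in 1 fit, at 0.0522 without WT dpc16 library 2. Ly6a, a surface protein of progenitor cells, had 753, 1097 and 715 FPKM in cKO, against 334, 433 and 332 FPKM in WT dpc16 (log2 change 1.20, SE 0.23, adjusted p = 0.0322), lost in 5 fits, up to 0.118 without WT dpc16 library 1. The master regulator Trp63 (0.09, adjusted p = 0.805) and the integrins Itga6 (-0.06, adjusted p = 0.907) and Itgb4 (0.03, adjusted p = 0.97) did not pass.

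Of 22 tested hemidesmosome and anchoring genes 1 was called (4.55%, against 2.25% of all genes), and the list median was -0.01. Dst (ENSMUSG00000026131; mm10 chromosome 1, 33908225 to 34308661), which encodes the plakin that ties keratin filaments to hemidesmosomes, had 718, 583 and 525 FPKM in cKO, 289, 271 and 288 FPKM in WT dpc16 and 288, 297 and 262 FPKM in WT NP. Its WT values were nearly constant and every cKO library lay well above them (log2 change 1.09, SE 0.14, adjusted p = 0.006). Its hemidesmosome partners Plec (-0.23, adjusted p = 0.575) and Col17a1 (-0.39, adjusted p = 0.203) did not pass, and the anchoring fibril collagen Col7a1 had 152, 202 and 272 FPKM in cKO, against 396, 458 and 314 FPKM in WT dpc16 (log2 change -0.92, adjusted p = 0.0687). Matrix genes outside that list were called in both directions. Smoc2, a matricellular calcium-binding protein, had 133, 148 and 138 FPKM in cKO, against 341, 326 and 303 FPKM in WT dpc16 (log2 change -1.20, SE 0.12, adjusted p = 0.00235). Adamts14, a procollagen peptidase, had 9.85, 12.4 and 12.6 FPKM in cKO, against 33.5, 36.2 and 26.1 FPKM in WT dpc16 (log2 change -1.38, SE 0.18, adjusted p = 0.00662). Both, like Vegfd, Emb, Abcc3, Adh7, Slc4a8, Ctsh, Acpp, Grk3 and Gas1 below, were chosen for naming after their values were seen. Thbs2, a matricellular thrombospondin, had 11.9, 25.5 and 21.3 FPKM in cKO, against 58.7, 60.1 and 60.5 FPKM in WT dpc16 (log2 change -1.63, SE 0.24, adjusted p = 0.0106), lost in 1 fit, at 0.0522 without WT dpc16 library 2. Papln, a matrix glycoprotein, rose, with 69.7, 56 and 35.6 FPKM in cKO, against 14.6, 12 and 5.9 FPKM in WT dpc16 (log2 change 2.24, SE 0.32, adjusted p = 0.0102). Of 17 metalloproteinases, ADAMs and their inhibitors, Adam8 (-2.23, adjusted p = 0.0182) and Mmp15 (-1.20, adjusted p = 0.045) fell, in calls lost in 5 and 6 fits, with adjusted p up to 0.0779 without cKO library 1 and 0.159 without cKO library 1. The share called in that list was 11.8%, against 2.25% of all genes.

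Of 23 tested genes of the IGF and insulin axis 2 rose and 4 fell (26.1%, against 2.25% of all genes), with a median of 0.42. Without cKO library 3, 5 were higher and 3 lower. Besides Igfbp3, the binding protein Igfbp5 fell, with 0.187, 1.56 and 0.615 FPKM in cKO, against 7.57, 5.92 and 11.4 FPKM in WT dpc16 (log2 change -2.41, SE 0.33, adjusted p = 0.00895). Igfbp7 (-1.23, adjusted p = 0.0446) and the mTOR inhibitor Deptor (-1.05, adjusted p = 0.0398) fell in calls lost in 7 fits each, up to 0.153 without cKO library 1 for Igfbp7 and 0.141 without cKO library 1 for Deptor. Among the rises, Pik3ip1, an inhibitor of PI3 kinase, had 137, 90 and 79.9 FPKM in cKO, against 41.2, 26.8 and 26.2 FPKM in WT dpc16 (log2 change 1.67, SE 0.27, adjusted p = 0.0167). Sesn1, a restraint on mTOR complex 1 that p53 and FOXO induce, had 103, 57.9 and 46.7 FPKM in cKO, against 19.2, 22.8 and 20.4 FPKM in WT dpc16 (log2 change 1.61, SE 0.25, adjusted p = 0.0162). Each lost its call in 3 fits, up to 0.0723 without WT dpc16 library 2 for Pik3ip1 and 0.0608 without WT dpc16 library 3 for Sesn1. The receptor Igf1r (0.85, adjusted p = 0.0969), the adaptor Irs2 (1.88, adjusted p = 0.119) and the transcription factor Foxo3 (1.03, adjusted p = 0.0828) did not pass. Sesn1 was also the only call among 27 p53 targets and cell cycle inhibitors (3.70%, against 2.25% of all genes), whose median was 0.39.

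A few genes of lipid handling fell. Slc27a3, of the fatty acid transport protein family (ENSMUSG00000027932; mm10 chromosome 3, 90385239 to 90389938), had 21.1, 31.4 and 34.6 FPKM in cKO, 152, 154 and 171 FPKM in WT dpc16 and 167, 163 and 137 FPKM in WT NP. The 3 cKO libraries lay far below all 6 WT libraries, with means of 29 ± 7.05 FPKM in cKO and 159 ± 10.1 FPKM in WT dpc16 (SD, n = 3 each) and log2 change -2.44, SE 0.19, adjusted p = 0.000856. With it, 3 of 35 genes for fatty acid uptake and barrier lipids fell and none rose (8.57%, against 2.25% of all genes, median -0.15). Elovl4, which elongates the very long chains of barrier ceramides, had 9.86, 5.85 and 9.49 FPKM in cKO, against 22.6, 17.8 and 36.4 FPKM in WT dpc16 (log2 change -1.47, SE 0.27, adjusted p = 0.0247), and the acyl-CoA synthetase Acsl1 had 68.2, 65.4 and 63.1 FPKM in cKO, against 102, 101 and 128 FPKM in WT dpc16 (log2 change -0.73, SE 0.14, adjusted p = 0.0315). Their calls were lost in 4 and 6 fits, up to 0.0777 without WT dpc16 library 1 for Elovl4 and 0.103 without WT dpc16 library 3 for Acsl1. Of 19 genes for PPAR signalling and fatty acid oxidation, Angptl4 and Cpt1a fell and the receptor Ppara rose, with a median of -0.31. That is 15.8% called, against 2.25% of all genes. Cpt1a, which admits fatty acids to mitochondria, had 24.5, 24 and 31 FPKM in cKO, against 49.9, 46.3 and 57.1 FPKM in WT dpc16 (log2 change -0.93, SE 0.17, adjusted p = 0.0233), and Ppara had 20.7, 22.4 and 23.3 FPKM in cKO, against 11.1, 11.1 and 11.7 FPKM in WT dpc16 (log2 change 0.91, SE 0.16, adjusted p = 0.0211). Each of these lost its call in 5 fits, up to 0.093 without WT dpc16 library 3 for Cpt1a and 0.0935 without WT dpc16 library 2 for Ppara. Of 23 cholesterol synthesis genes only Sc5d fell (-0.93, adjusted p = 0.0414), in a call lost in 7 fits, up to 0.148 without cKO library 1. The share called there was 4.35%, against 2.25% of all genes.

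Of 16 tested amino acid and nutrient transporters 3 rose and none fell (18.75%, against 2.25% of all genes), with a median of 0.12. Slc43a1, a transporter of large neutral amino acids, had 86, 32.7 and 26.4 FPKM in cKO, against 6.16, 5.92 and 3.53 FPKM in WT dpc16 (log2 change 2.83, SE 0.39, adjusted p = 0.00895). Its relative Slc43a2 (2.40, adjusted p = 0.0315) and Slc3a2, the heavy chain of several amino acid transporters (0.67, adjusted p = 0.0435), rose in calls lost in 5 and 7 fits, up to 0.108 without WT dpc16 library 2 and 0.15 without cKO library 1. Among transporters and enzymes outside the lists, Slc4a8, a bicarbonate transporter, had 96.9, 82.2 and 77.5 FPKM in cKO, against 28.1, 36.4 and 32 FPKM in WT dpc16 (log2 change 1.38, SE 0.15, adjusted p = 0.00413). Abcc3, an export pump, had 33.7, 30.7 and 25.4 FPKM in cKO, against 7.82, 8.14 and 5.03 FPKM in WT dpc16 (log2 change 1.97, SE 0.25, adjusted p = 0.006). Cyp2b10, a cytochrome P450 of xenobiotic metabolism, had 189, 91.6 and 83.2 FPKM in cKO, against 28.8, 24.6 and 27.6 FPKM in WT dpc16 (log2 change 2.03, SE 0.29, adjusted p = 0.00958). Adh7, an alcohol and retinol dehydrogenase, had 114, 148 and 115 FPKM in cKO, against 39.8, 55.4 and 32.9 FPKM in WT dpc16 (log2 change 1.56, SE 0.22, adjusted p = 0.00924). Of 14 genes for retinoid and aldehyde metabolism Aldh1a1 (-1.74, adjusted p = 0.0104) and Aldh3b2 (-1.80, adjusted p = 0.0194) fell, in calls lost in 2 and 3 fits, up to 0.0521 without WT dpc16 library 2 and 0.0713 without WT dpc16 library 3. The share called there was 14.3%, against 2.25% of all genes. Outside the list Adh1, a neighbour of Adh7 chosen after its values were seen, also rose (1.90, adjusted p = 0.0214). Its call was lost in 3 fits, up to 0.0906 without WT dpc16 library 2. Among 29 tested gene IDs of glycolysis and hypoxia, the mitophagy receptor Bnip3 rose (1.85, adjusted p = 0.0113) and the carbonic anhydrase Car12 fell (-2.16, adjusted p = 0.0144), losing their calls in 2 and 3 fits, up to 0.0525 without WT dpc16 library 2 and 0.0583 without WT dpc16 library 3. These 2 calls are 6.90% of the IDs, against 2.25% of all genes. The phosphatase Acpp had 356, 298 and 258 FPKM in cKO, against 146, 130.2 and 131 FPKM in WT dpc16 (log2 change 1.15, SE 0.16, adjusted p = 0.00895).

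Protease inhibitors and proteases formed a further group. In the Serpina3 cluster on chromosome 12, Serpina3g had 117, 127 and 123 FPKM in cKO, 33.6, 30.4 and 15.4 FPKM in WT dpc16 and 32, 29.3 and 37.8 FPKM in WT NP (log2 change 2.24, SE 0.25, adjusted p = 0.00413). Serpina3n had 272, 36.9 and 31.4 FPKM in cKO, against 0, 1.14 and 0 FPKM in WT dpc16; it was listed at 0 in WT dpc16 libraries 1 and 3, so no fold is given, and its log2 change on the FPKM + 1 scale was 5.75 (SE 0.73, adjusted p = 0.00608). Serpina3j (3.00, adjusted p = 0.0247) and Serpina3i (1.23, adjusted p = 0.0446) also rose, in calls lost in 3 and 8 fits, up to 0.0906 without WT dpc16 library 2 and 0.159 without cKO library 1. The cysteine protease inhibitor Stfa3 fell (-3.30, adjusted p = 0.0428), with 11.4, 7.91 and 43.7 FPKM in cKO, against 82.4, 121 and 467 FPKM in WT dpc16, a call lost in 8 fits, up to 0.153 without cKO library 1. Together 4 of 12 tested stefin A and Serpina3 genes rose and 1 fell (41.7%, against 2.25% of all genes). Both families are arrays of near-identical copies, and how fragments that match several copies were assigned is not given, so the split between members is uncertain. The kallikrein Klk8 had 5.18, 5.13 and 8.74 FPKM in cKO, against 23.8, 35.1 and 35.7 FPKM in WT dpc16 (log2 change -2.16, SE 0.30, adjusted p = 0.00924). It was the only call among 12 kallikreins and their inhibitors (8.33%, against 2.25% of all genes). Ctsh, the lysosomal protease cathepsin H, had 221, 233 and 208 FPKM in cKO, against 107, 95.2 and 90 FPKM in WT dpc16 (log2 change 1.17, SE 0.13, adjusted p = 0.00413).

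The list of semaphorins, plexins, neuropilins, ephrins, slits, netrins and their receptors had 2 rises and 1 fall among 28 tested genes, with a median of -0.03. That is 10.7% called, against 2.25% of all genes. Plxnd1, the receptor for the guidance cue Sema3e (ENSMUSG00000030123; mm10 chromosome 6, 115954811 to 115995005), had 3.83, 2.1 and 7.11 FPKM in cKO, 44.2, 35.3 and 47.4 FPKM in WT dpc16 and 9.95, 15 and 9.64 FPKM in WT NP (log2 change -3.12, SE 0.32, adjusted p = 0.00312). The WT dpc16 libraries stood above all others. Sema3e had 3.25, 3.06 and 3.58 FPKM in cKO, against 0.98, 0.97 and 1.31 FPKM in WT dpc16 and did not pass (log2 change 1.04, adjusted p = 0.0626). Sema5a rose (1.22, adjusted p = 0.0104), a call lost in 1 fit, at 0.0569 without WT dpc16 library 2, and so did the netrin Ntn4 (2.05, adjusted p = 0.0268), lost in 5 fits, up to 0.102 without WT dpc16 library 2. Sema6c, a semaphorin outside the list, also rose (1.99, adjusted p = 0.0407), lost in 7 fits, up to 0.15 without cKO library 1. Some genes known from vessels were called as well, though markers of vessel cells were low. Of 10 endothelial markers, 2 were tested and 0 called, with a median of -0.37. Their sums were at most 8.5 FPKM in cKO and 5.94 FPKM in WT dpc16. Vegfd, a growth factor of lymphatic vessels, had 76.2, 72.6 and 48.1 FPKM in cKO, 19.5, 20.3 and 17.6 FPKM in WT dpc16 and 32.1, 25 and 22.3 FPKM in WT NP (log2 change 1.70, SE 0.21, adjusted p = 0.00571). Ramp3, an accessory subunit of the receptor for adrenomedullin, had 51.2, 22.4 and 23.5 FPKM in cKO, against 6.33, 5.87 and 4.38 FPKM in WT dpc16 (log2 change 2.26, SE 0.30, adjusted p = 0.00704). Mcam, an adhesion molecule known from vessel walls, had 26, 44.1 and 19.6 FPKM in cKO, against 4.88, 2.99 and 4.43 FPKM in WT dpc16 (log2 change 2.54, SE 0.29, adjusted p = 0.00437). Mcam is 1 of 10 smooth muscle and pericyte markers, 4 of which were tested. The other 3 did not pass: Tagln (0.41, adjusted p = 0.503), Cnn1 (0.67, adjusted p = 0.633) and Cspg4 (-0.24, adjusted p = 0.592). Cspg4 had 9.57, 11.8 and 10.8 FPKM in cKO, against 13.2, 13.6 and 11.8 FPKM in WT dpc16. The contractile genes Acta2 and Myh11 were below the filter: Acta2 had 0.451, 0.664 and 0.793 FPKM in cKO, against 1.25, 1.07 and 1.12 FPKM in WT dpc16, and Myh11 had 0.035, 0 and 0.015 FPKM in cKO, against 0, 0 and 0 FPKM in WT dpc16.

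Immune signals of keratinocytes gave 2 rises and 3 falls among 31 chemokines and cytokine receptors (16.1%, against 2.25% of all genes), with a median of 0.11. Il34, the cytokine that maintains Langerhans cells, had 137, 99.3 and 157 FPKM in cKO, 380.2, 309 and 327 FPKM in WT dpc16 and 188, 205 and 186 FPKM in WT NP (log2 change -1.38, SE 0.17, adjusted p = 0.006). Il4ra, the shared receptor chain for interleukins 4 and 13, had 24.2, 14.6 and 28.6 FPKM in cKO, 79.2, 64.1 and 89.8 FPKM in WT dpc16 and 20.6, 20.5 and 27.7 FPKM in WT NP (log2 change -1.78, SE 0.25, adjusted p = 0.00898), and its cKO and NP libraries overlapped. Pglyrp4, a peptidoglycan recognition protein, fell (-2.20, adjusted p = 0.0167), in a call lost in 4 fits, up to 0.065 without WT dpc16 library 3. The cytokine Il18 rose (2.35, adjusted p = 0.012), as did the receptor Il20ra (0.85, adjusted p = 0.0167), lost in 2 and 5 fits, up to 0.0525 without WT dpc16 library 2 and 0.0782 without WT dpc16 library 1. By limma 0 of 28 interferon and MHC class I genes were called (median 0.06), with 6 at an unadjusted p of 0.05, against 17.7% of all genes tested. Without cKO library 3, 4 of them rose and 1 fell. Cd207, which marks Langerhans cells, had 1.99, 1.03 and 1.93 FPKM in cKO, against 0.978, 0.688 and 0.90 FPKM in WT dpc16.

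Called genes of various kinds outside the lists included Pkib, an inhibitor of protein kinase A, with 124, 110.3 and 90.3 FPKM in cKO, 16.8, 41 and 25.1 FPKM in WT dpc16 and 125, 102 and 87.1 FPKM in WT NP (log2 change 2.01, SE 0.28, adjusted p = 0.00924). Its cKO and NP libraries lay in one range, above the WT dpc16 libraries. Grk3, a kinase of G protein-coupled receptors, had 0.319, 0.402 and 0.633 FPKM in cKO, 4.36, 6.3 and 6.72 FPKM in WT dpc16 and 0.706, 0.758 and 0.128 FPKM in WT NP (log2 change -2.21, SE 0.28, adjusted p = 0.00601), under 1 FPKM in every library outside WT dpc16. Rerg, a Ras-like GTPase, had 1.77, 0.749 and 0.876 FPKM in cKO, 15.8, 9.85 and 16.5 FPKM in WT dpc16 and 3.8, 4.61 and 1.59 FPKM in WT NP (log2 change -2.82, SE 0.34, adjusted p = 0.00542). Gas1, a hedgehog co-receptor, had 19.3, 24.8 and 29.2 FPKM in cKO, against 56.8, 54 and 64.4 FPKM in WT dpc16 (log2 change -1.24, SE 0.17, adjusted p = 0.00895). Emb, a chaperone of monocarboxylate transporters, had 37.5, 39.6 and 33.6 FPKM in cKO, against 11.2, 9.13 and 6.32 FPKM in WT dpc16 (log2 change 1.97, SE 0.23, adjusted p = 0.00437). Gypc, the membrane protein glycophorin C, had 11.5, 38.9 and 15.5 FPKM in cKO, against 0, 0.126 and 0 FPKM in WT dpc16. It was listed at 0 in WT dpc16 libraries 1 and 3 and passed the filter only through its cKO values. Its log2 change was 4.28 on the FPKM + 1 scale (SE 0.38, adjusted p = 0.00143). The zinc finger gene Zfp949, whose window opens the sequences above, had 74.6, 42.4 and 45.1 FPKM in cKO, against 5.68, 9.29 and 6.8 FPKM in WT dpc16 (log2 change 2.71, SE 0.33, adjusted p = 0.00567).

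The lists of developmental pathways held 1 to 4 calls each. The shares called were 5.88% in the Wnt list, 2.94% in the TGF-beta and BMP list and 4.76% in the ErbB and FGF list, which is 1 or 2 genes each, against 2.25% of all genes tested. They were 13.3% in the Notch list and 19.0% in the YAP list. Of 34 Wnt genes, Wnt3 (-0.92, adjusted p = 0.0266) and Wnt6 (-0.89, adjusted p = 0.0377) fell, in calls lost in 5 and 6 fits, up to 0.0981 without cKO library 1 and 0.146 without WT dpc16 library 2, and the pathway readout Axin2 did not pass (0.05, adjusted p = 0.935). Of 15 Notch genes, Notch3 fell and the ligand Dll1 rose (0.92, adjusted p = 0.0455), the call of Dll1 being lost in 6 fits, up to 0.16 without cKO library 1. Of 21 tested IDs of YAP targets and partners, Ctgf (1.93, adjusted p = 0.0402), Nt5e (1.53, adjusted p = 0.0181), Crim1 (1.16, adjusted p = 0.0195) and Amotl2 (0.85, adjusted p = 0.0374) rose, with a median of 0.40, while Cyr61 did not pass (0.18, adjusted p = 0.932). These calls were lost in 6, 3, 5 and 7 fits, up to 0.143 without cKO library 1, 0.07 without WT dpc16 library 2, 0.0799 without WT dpc16 library 2 and 0.135 without WT dpc16 library 1. In the TGF-beta and BMP list 1 of 34 rose, the matrix protein Tgfbi (0.65, adjusted p = 0.0349), and in the ErbB and FGF list 1 of 21, the receptor Erbb3 (1.13, adjusted p = 0.0402). Each was lost in 7 fits, up to 0.144 without WT dpc16 library 2 for Tgfbi and 0.144 without WT dpc16 library 2 for Erbb3. Erbb3 is also a Schwann cell marker, and the defining Schwann cell gene Sox10 had 0.0746, 0 and 0 FPKM in cKO, against 0, 0 and 0 FPKM in WT dpc16.

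Cell division genes gave no call at the adjusted threshold. By limma none of 51 S phase genes (median log2 change 0.05) and none of 59 G2 and mitosis genes (median 0.16) passed. Of the 59, 46 were above 0, against 51.1% of all genes tested. At an unadjusted p of 0.05 there were 4 of the 51 and 1 of the 59, against 17.7% of all genes tested. None of 21 circadian clock genes was called (median 0.30), with 6 at an unadjusted p of 0.05. None of 34 immediate early and heat shock genes was called (median 0.39), with 4 at an unadjusted p of 0.05. The share of 17.7% over all genes is the background for both lists. Their sum in FPKM was 27469, 18599 and 8481 in cKO, against 23101, 15774 and 4700 in WT dpc16. The 12 tested mitochondrially encoded genes were all below 0 (median -0.29), with 0 called and 0 at an unadjusted p of 0.05. Their sums were 14678, 17454 and 49177 FPKM in cKO, against 17463, 26425 and 48590 FPKM in WT dpc16, so within both genotypes the libraries with the lowest mitochondrial sums had the highest sums of immediate early genes. How these differences among libraries bear on the calls was not tested.

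**Figure D4:**
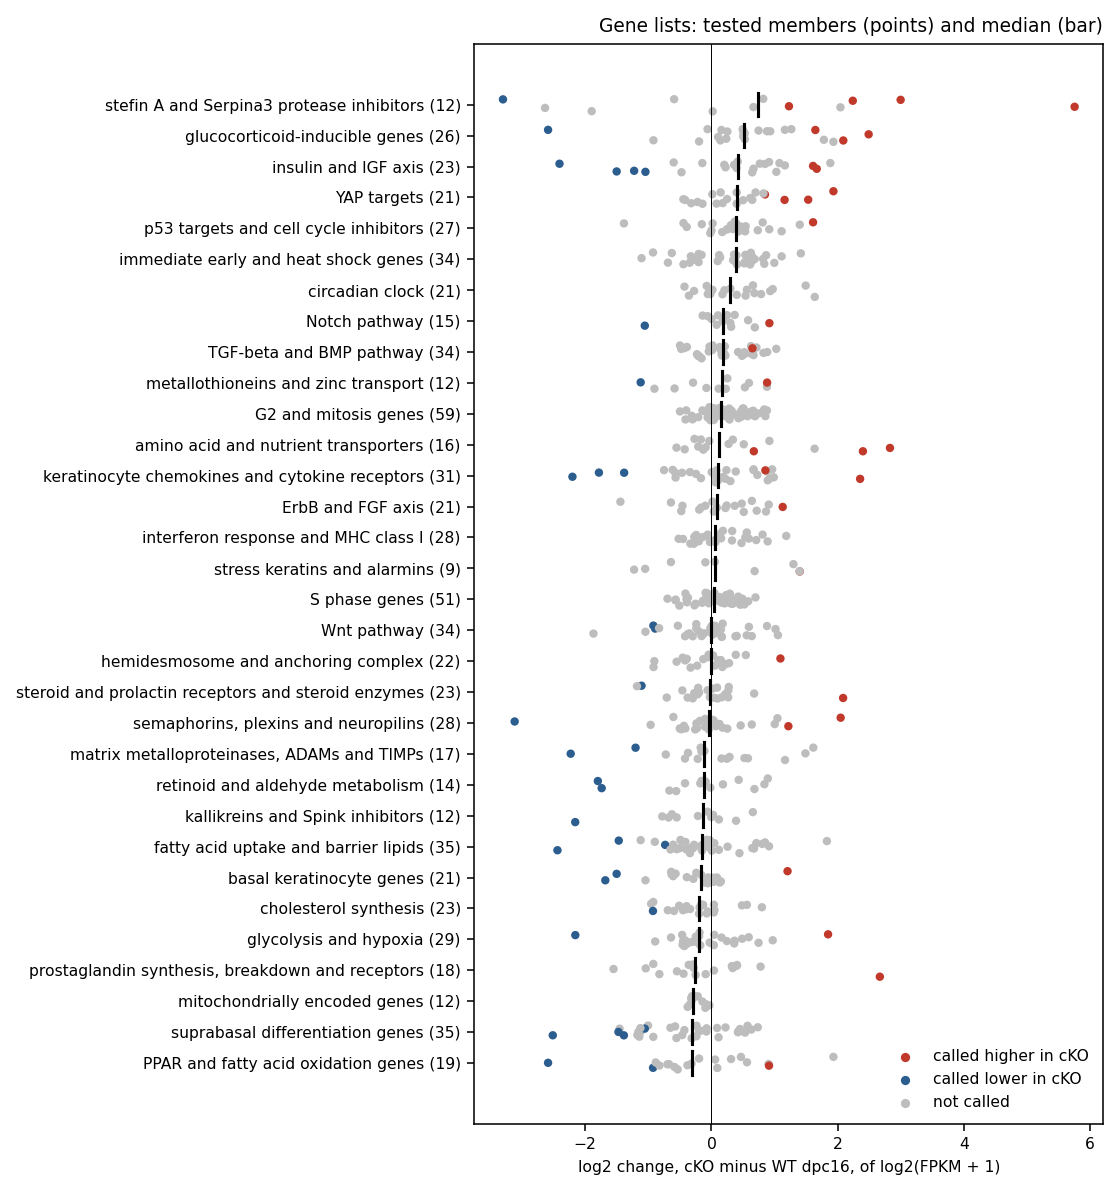
Log2 change (cKO minus WT dpc16, in log2(FPKM + 1)) of every tested member of the gene lists with at least 9 tested, the number in brackets; the black bar is the list median, and red and blue mark genes that rose and fell. The suprabasal differentiation list has 4 blue and no red points, and the 59 G2 and mitosis genes have neither.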

How the data were processed

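The authors deposited bulk values as FPKM in 1 table of 21950 genes and 9 columns. Per the submitters' processing notes the build was mm10 and the tools included TopHat2, Cuffdiff, Cufflinks 2.2.1 and cutadapt 1.14, with no roles stated. The sources used here do not give the annotation, strand setting or between-library scaling. By exclusion, the columns headed WT are the dpc16 group, and libraries are numbered by column order. RNA came from a stranded mRNA kit with an integrity number above 7, per the labels' protocols. The single-cell files were not used here.

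Values were taken as log2(FPKM + 1), which understates changes of low genes. Genes averaging 1 FPKM or more over the 6 dpc16 libraries entered limma 3.58.1 (R 4.3.3). It fitted 3 group means over all 9 libraries with a mean-variance trend. Two-sided p-values were adjusted by the Benjamini-Hochberg method over all genes tested, with a threshold of 0.05. The fit was tested on simulated data. A gene is said to have risen or fallen, or to be called, where it passed, and a log2 change is cKO minus WT dpc16. Depth was estimated from the even spacing, within a fixed search range, that best fitted low FPKM values times length in long genes. At the spacing so chosen, 91.1% to 100.0% of values were whole within 0.2 fragment, which is no separate check of it. Positions are from GENCODE M21 (21886 IDs matched) and promoter windows from RefSeq. The alternatives were other pseudocounts, filters, normalizations, moderation, the 6 libraries alone, a block by column number and each library left out.

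The genes named were Tbx3, the 25 largest rises and falls among non-overlapping called genes averaging 5 FPKM or more, called members of the lists, up to 4 further members per list by p, and members of the same family or needed to show that a list did not pass. Not all are described, and some genes that the rule names are left out. Members and lists were chosen with earlier results of these data known, so list counts are descriptions with no test.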

Additional observations from a re-analysis of the deposited data

How the results depend on the processing

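None of the 87 named genes changed the sign of its log2 change under any alternative run. Some list medians did, as did the median of all genes. The count of 257 calls was 87 without the filter on low FPKM and 163 from the 6 dpc16 libraries alone, and 52 to 397 when any 1 library was left out. With a pseudocount of 0.1 or 5 it was 234 or 232, with a filter of 5 FPKM 259, with quantile normalization 295, with median-of-ratios scaling 279, without a trend 179 and with robust moderation 261. The log2 change of Tbx3 stayed at -2.09 without the filter on low FPKM, where its adjusted p was 0.0511, and lay between -2.29 and -1.71 with any 1 library left out. Genes whose groups do not overlap numbered 3005 to 4715 in those fits. Leaving out a library can only keep or raise that number, so it does not measure stability. Of those 87 genes, 28 kept their calls in all 9 of those fits. Without the filter on low FPKM 48 named genes lost their calls, and from the 6 dpc16 libraries alone 25 did; the cause was not tested. The median log2 change of all genes lay between -0.02 and 0.02 over all scalings and alternatives. Of the list medians, 18 of 494 values moved by more than the spread between libraries under the settings other than leaving out a library. With a library left out, 25 of 450 did. The column numbers cannot be tied to the replicate numbers of the labels. With the column number as a replicate block the count was 233, of which 191 were among the 257, and 12 named genes lost their calls. Same-numbered cKO and WT dpc16 libraries had correlated deviations of 0.318, 0.0753 and 0.358. Differently numbered ones had correlations between -0.337 and 0.0873. The main fit did not pair the libraries by number, and whether same-numbered libraries belong together was not tested. Without cKO library 3, 4 of the 26 glucocorticoid-inducible genes rose and 1 fell, and 5 of the 35 suprabasal genes fell. Depth limits genes near 1 FPKM, which rest on about 30 to 65 fragments for a 2 kb transcript.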

Other observations

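Further genes with large changes belonged to none of the lists. Spock2, a matrix proteoglycan, rose (log2 change 2.74, SE 0.43, adjusted p = 0.0164), as did Gpnmb, a transmembrane glycoprotein (log2 change 2.65, SE 0.42, adjusted p = 0.0164) and Angptl7, a secreted angiopoietin-like protein (log2 change 3.09, SE 0.50, adjusted p = 0.0167). Fam180a rose in a call held in all 9 fits that left out 1 library, with 27.9, 15.3 and 13.2 FPKM in cKO, against 1.11, 1.77 and 1.32 FPKM in WT dpc16 (log2 change 2.98, SE 0.33, adjusted p = 0.00413). The fall of 1810011O10Rik also held in all 9, with 16.8, 19.8 and 16.1 FPKM in cKO, against 86.6, 65.8 and 54.3 FPKM in WT dpc16 (log2 change -1.89, SE 0.20, adjusted p = 0.00312). Has3, a hyaluronan synthase, had 1.04, 1.62 and 2.42 FPKM in cKO, against 8.94, 6.9 and 9.87 FPKM in WT dpc16 (log2 change -1.85, SE 0.30, adjusted p = 0.0164), and the transcription factor Irf4 had 1.18, 2.67 and 0.592 FPKM in cKO, against 9.91, 9.88 and 7.38 FPKM in WT dpc16 (log2 change -2.10, SE 0.35, adjusted p = 0.0177). The calls of Spock2, Gpnmb, Angptl7, Has3 and Irf4 were lost in 1, 3, 4, 4 and 4 of the 9 fits, with adjusted p up to 0.0723 without cKO library 1, 0.0648 without WT dpc16 library 2, 0.0737 without cKO library 1, 0.07 without cKO library 1 and 0.0799 without WT dpc16 library 2. Of 12 zinc and metallothionein genes the importer Slc39a8 rose (0.88, adjusted p = 0.0494) and the importer Slc39a10 fell (-1.12, adjusted p = 0.0428), each lost in 8 fits, up to 0.168 without cKO library 1 and 0.15 without cKO library 1. The share called in that list was 16.7%, against 2.25% of all genes.

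Some called genes lay side by side in the genome, and those shown were chosen after their values were seen. Other called neighbours went opposite ways, such as Cnn2, which fell, and Cirbp, which rose, 169923 bases apart. Adam8 fell and Fuom rose, 104208 bases apart, while Notch3 and Ephx3 both fell. Whether neighbours shared a direction more often than other genes was not tested. On chromosome 10, 3 cytokine receptor genes in a row rose: Ifngr1 (1.08, adjusted p = 0.0194), Il22ra2, a soluble receptor that binds interleukin 22 (1.94, adjusted p = 0.0195), and Il20ra (0.85, adjusted p = 0.0167), with 11769 and 77889 bases between neighbours. Their calls were lost in 5, 3 and 5 fits, up to 0.076 without cKO library 1, 0.078 without cKO library 1 and 0.0782 without WT dpc16 library 1. Pir (1.32, adjusted p = 0.0106) and Vegfd (1.70, adjusted p = 0.00571), 367 bases apart on the X chromosome, both rose. They lie on the same strand, and how fragments near their boundary were assigned is not given in the sources used here. The call of Pir was lost in 1 fit, at 0.0525 without WT dpc16 library 2. Near the targeted gene, 1 of 119 tested genes within 5 Mb of Tbx3 was called (0.84%), and 5 of 337 within 20 Mb (1.48%), against 2.25% of all genes.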
